A study of Homo sapiens with 4 samples.

Results

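Tight junction genes were followed in PC9 cells, a human lung adenocarcinoma line driven by mutant *EGFR*, and in PC9OR cells, their derivative that resists the EGFR inhibitor osimertinib. The genes are 5 claudins (*CLDN1*, *CLDN3*, *CLDN4*, *CLDN7* and *CLDN12*), occludin (*OCLN*), the junctional adhesion molecule *F11R*, and the ZO scaffold genes *TJP1* and *TJP3*, which makes 9 of the 16813 genes listed in at least 1 library. They were chosen by name with the difference in *CLDN1* between the lines already known from these libraries, together with the question whether the other claudins follow *CLDN1*. Their changes between the lines are therefore given as a description, with no p-value for any single gene. Counts of calls among them appear below only as a description. All 9 were listed in all 4 libraries and passed the filter on low counts.

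Each line was sequenced as 2 biological replicates, and the labels give both lines the genotype WT, the phenotype control for PC9 and osimertinib resistant for PC9OR. Both were kept in the same serum-supplemented RPMI medium, and the labels name no osimertinib in it. PC9OR is 1 resistant line, so what goes with resistance and what sets these cultures apart for any other reason cannot be told apart. The labels do not say that the replicates came from separate cultures, and any p-value covers only the spread between these libraries. The expected counts summed to between 23201307 and 32203998 per library. Levels are given as FPKM (fragments scaled by transcript length and library depth, as deposited), which allows genes to be compared, or as CPM (counts scaled to library depth after TMM normalization), on which the changes between the lines rest.

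Tight junctions seal the space between epithelial cells near their apical side. Claudins and occludin span the membrane, the claudins pairing across cells into strands that set which ions and small molecules pass, while *F11R* encodes an immunoglobulin-type adhesion protein. The ZO proteins lie underneath, binding claudin tails and linking the strands to actin. In lung, *CLDN18* is the claudin typical of alveolar epithelium, whereas *CLDN1*, *CLDN4* and *CLDN7* are found in many epithelia and carcinomas.

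The last 30 coding bases of the 5 claudins are shown because this is where a claudin meets the ZO proteins: a tail that ends in tyrosine and valine binds the first PDZ domain of a ZO protein. They were read from the GENCODE canonical transcripts on GRCh37, at chr3:190026069-190026098 (- strand) for *CLDN1*, chr7:73183720-73183749 (- strand) for *CLDN3*, chr7:73246129-73246158 (+ strand) for *CLDN4*, chr17:7163696-7163725 (- strand) for *CLDN7* and chr7:90042693-90042722 (+ strand) for *CLDN12*, and the capitals mark the last 2 codons before the stop.
CLDN1: cctgcaccttccagcgggaaagacTACGTG
CLDN3: ggcacaggctacgaccgcaaggacTACGTC
CLDN4: gcccgctctgctgctgccagcaacTACGTG
CLDN7: cctaagtccaactcttccaaggagTATGTG
CLDN12: attgacattccagtagtttcacacACCACT
In *CLDN1*, *CLDN3*, *CLDN4* and *CLDN7* those 2 codons encode tyrosine and valine, and in *CLDN12* they do not. Over the whole coding sequence, *CLDN1* was 65.7% identical to *CLDN7*, 59.5% to *CLDN4*, 58.4% to *CLDN3* and 48.5% to *CLDN12*. The closest pair was *CLDN3* and *CLDN4*, at 74.0%.

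*CLDN1* (Entrez 9076, chr3:190023496-190040235, minus strand, 4 exons) was the member with the largest difference. It reached 29.2 and 23.1 FPKM in PC9 replicates 1 and 2 and 2.76 and 2.45 FPKM in PC9OR replicates 1 and 2. Both resistant libraries lay far below both parental ones, with no overlap. The expected counts behind these values were 3227 and 3223 in PC9 and 428 and 387 in PC9OR cells, so the lower level still rested on many reads. By CPM the level was 9.79-fold lower in PC9OR cells, a log2 fold change of -3.29 with a standard error (SE) of 0.162. It ran from -3.45 to -3.14 when each library was left out in turn. By FPKM, *CLDN1* went from position 1991 and 2629 among the genes listed in the PC9 libraries to position 8498 and 8682 in the PC9OR libraries.

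*CLDN4* (Entrez 1364, chr7:73213872-73247020, plus strand) went the other way. This claudin, a barrier-forming member that many carcinomas express, stood at 113 and 134 FPKM in PC9 and at 249 and 208 FPKM in PC9OR cells. Neither PC9OR value fell within the PC9 range, and the log2 fold change was 0.91 (SE 0.152), or 1.88-fold. *CLDN4* was 3.89 and 5.79 times as abundant as *CLDN1* by FPKM in the PC9 libraries, and 90.3 and 84.8 times as abundant in the PC9OR libraries.

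*CLDN7* (Entrez 1366, chr17:7163222-7167302, minus strand), a claudin also found along the lateral membrane, had 120 and 153 FPKM in PC9 and 129 and 125 FPKM in PC9OR cells. Both PC9OR values lay between the PC9 replicates. Its log2 fold change was -0.05 with a standard error of 0.153, and it ran from -0.23 to 0.13 when each library was left out, so its sign was not fixed. *CLDN12* (Entrez 9069, chr7:90013035-90142716, plus strand), a divergent claudin with its whole coding sequence in 1 exon, had 16.3 and 18.2 FPKM in PC9 and 14.5 and 13.9 FPKM in PC9OR cells. The groups did not overlap, but the difference was small, with a log2 fold change of -0.25 (SE 0.120).

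*CLDN3* (Entrez 1365, chr7:73183327-73184600, minus strand), the 1-exon neighbour of *CLDN4*, was the lowest member. It had 0.29 and 0.4 FPKM in PC9 and 0.63 and 0.69 FPKM in PC9OR cells. The counts were 11 and 19 in PC9 and 33 and 37 in PC9OR cells, and the log2 fold change of 0.94 carried a standard error of 0.436. *CLDN3* and *CLDN4* share 22 of their 50-base words, which is 1.8% of the words of *CLDN3* (n = 1225) and 1.34% of those of *CLDN4*, and *CLDN4* was far more abundant. The expected counts of both genes were whole numbers in every library. How many reads assigned to *CLDN3* came from *CLDN4* was not tested.

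**Figure D1:**
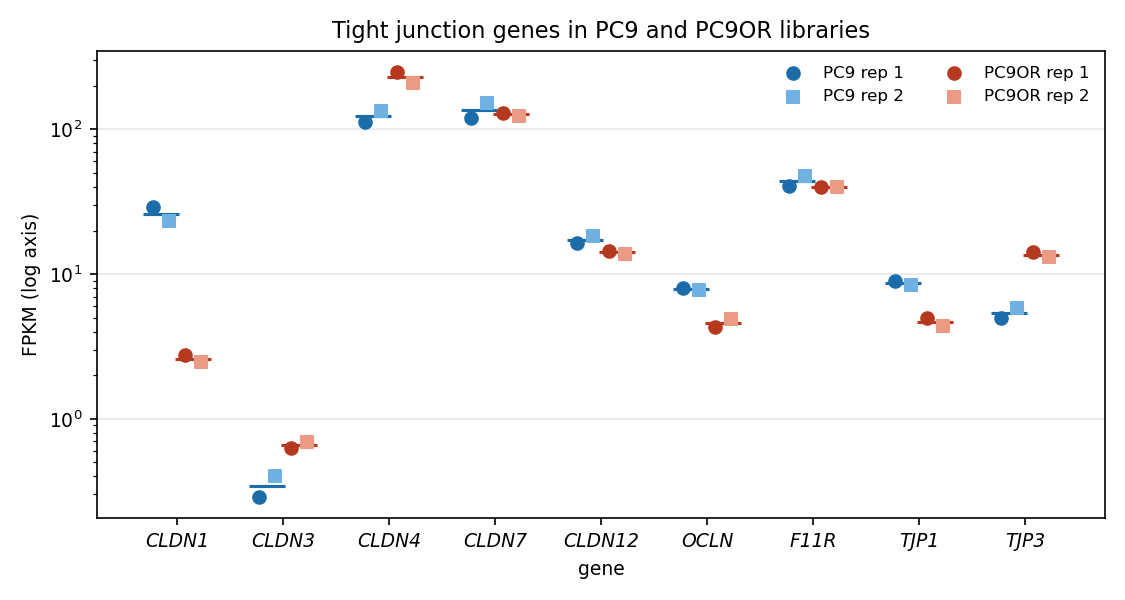
FPKM of the 9 tight junction genes on a log axis, with 1 point per library and a bar at the mean of each line (n = 2). *CLDN1* goes from 26.1 ± 4.25 to 2.61 ± 0.219 FPKM (mean ± SD), *CLDN4* and *TJP3* sit higher in PC9OR, and *CLDN7* and *F11R* stay at like levels in all 4 libraries.

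Of the 24 human claudin genes searched for, 14 were listed in at least 1 library, and 5 were at or above 1 FPKM in every library. Those 5 are *CLDN1*, *CLDN4*, *CLDN7*, *CLDN12* and *CLDN15*. *CLDN15*, a claudin that forms cation channels, had 2.66 and 1.87 FPKM in PC9 and 1.12 and 1.34 FPKM in PC9OR cells. Its PC9OR libraries were below its PC9 libraries, but its log2 fold change of -0.84 (SE 0.291) did not pass, with an adjusted p = 0.0740 (quasi-likelihood F-test of edgeR, Benjamini-Hochberg).

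*CLDN9*, known from the inner ear, had between 0.88 and 1.33 FPKM in the 4 libraries, with overlapping groups. *CLDN23* had 0.74 and 1.25 FPKM in PC9 and 1.53 and 1.38 FPKM in PC9OR cells, a log2 fold change of 0.57 (SE 0.358). None of the 3 tested claudins outside the 9 genes passed an adjusted p under 0.05, and 1 of them, *CLDN15*, had an unadjusted p under that value (edgeR). With PC9 replicate 2 left out, *CLDN15* (-1.08) and *CLDN23* (1.00) passed, in opposite directions. The others, *CLDN2*, *CLDN5*, *CLDN6*, *CLDN8*, *CLDN11* and *CLDN16*, had at most 6 counts in a library and were too low to test. *CLDN18* was not listed in any of the 4 files. *CLDN8* had 0 counts in both PC9 libraries and 4 and 5 counts in the PC9OR libraries, close to the floor of 3 counts below which no level was read. *CLDN5*, the claudin of endothelium, had 1 count in 1 library.

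The sum of all claudin FPKM was not lower in PC9OR cells. It was 284 and 333 in PC9 and 400 and 353 in PC9OR cells. The mix within that sum was different. *CLDN1* held 10.3% and 6.95% of it in PC9 and 0.690% and 0.694% in PC9OR cells. *CLDN4* held 40.0% and 40.2% in PC9 and 62.3% and 58.8% in PC9OR cells. The share of *CLDN7* was 42.2% and 45.9% in PC9 and 32.2% and 35.3% in PC9OR cells, although its own level hardly differed, because the share depends on the other claudins in the sum. For all 3 genes the shares of the lines did not overlap, but they are parts of 1 sum and not separate results. Of all genes tested, 38.2% had both PC9OR libraries below both PC9 libraries in CPM, and 39.6% had them above. Those percentages are for levels of single genes, and no such background was drawn up for shares of a family sum. In PC9 cells *CLDN7* was the most abundant claudin in both libraries, and in PC9OR cells *CLDN4* was.

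**Figure D2:**
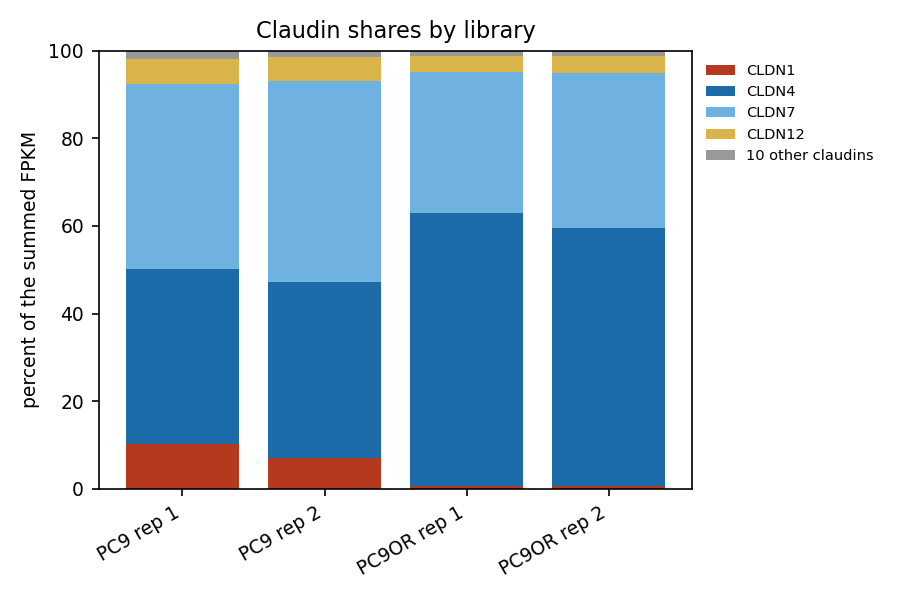
Percent of the summed claudin FPKM (vertical axis) that each claudin held, as 1 stacked bar per library, with the 10 other claudins listed in grey. The *CLDN1* band shrinks to 0.692% ± 0.0025 (SD, n = 2) in PC9OR while that of *CLDN4* reaches 60.6% ± 2.46.

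Among the scaffolds, *TJP3* (Entrez 27134, chr19:3708360-3750811, plus strand), which encodes the epithelial ZO protein ZO-3, was higher in PC9OR cells. It had 5 and 5.84 FPKM in PC9 and 14.1 and 13.2 FPKM in PC9OR cells, a log2 fold change of 1.36 (SE 0.136). The resistant libraries lay well above the parental ones. *TJP1* (Entrez 7082, chr15:29991571-30261118, minus strand, 28 exons), which encodes ZO-1, had 9 and 8.43 FPKM in PC9 and 5 and 4.35 FPKM in PC9OR cells. Its log2 fold change was -0.86 (SE 0.118), so these scaffolds stood in opposite directions. *TJP3* was 0.556 and 0.693 times as abundant as *TJP1* by FPKM in PC9 and 2.83 and 3.03 times in PC9OR cells.

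*OCLN* (Entrez 100506658, chr5:68788119-68853931, plus strand) encodes occludin, the first membrane protein found in tight junctions. It had 8.06 and 7.77 FPKM in PC9 and 4.32 and 4.91 FPKM in PC9OR cells, without overlap, and a log2 fold change of -0.74 (SE 0.124). *F11R* (Entrez 50848, chr1:160965001-160991133, minus strand) encodes JAM-A, an adhesion molecule that helps to place the junction. It had 40.6 and 47.3 FPKM in PC9 and 40.2 and 39.8 FPKM in PC9OR cells, a log2 fold change of -0.10 (SE 0.128). By FPKM both PC9OR libraries were slightly below both PC9 libraries, but the groups overlapped in CPM, where PC9 replicate 1, at 271, was below both PC9OR replicates, at 276 and 278. Of the 50-base words of the canonical *F11R* transcript, 40.7% also occur in transcripts of other genes, against 9.61% for *OCLN*, 14.7% for *CLDN7* and 0% for *CLDN1* and *TJP1*, so the assignment of *F11R* reads is the least certain of these.

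Transcript length moved with the comparison. Across 11429 genes that reached 20 counts in all 4 libraries, which are not independent replicates, the rank correlation with length was -0.46 for the log2 difference between PC9 replicates 2 and 1, -0.40 for that between PC9OR and PC9 cells and 0.00 for that between the PC9OR replicates. The fitted length curve put genes as long as *TJP1* (7831 bases) at -0.56 and genes as long as *OCLN* (6269 bases) at -0.43 on the log2 scale between the lines. With offsets for transcript length the log2 fold change of *TJP1* was -0.30 (SE 0.131) and that of *OCLN* was -0.32 (SE 0.131), while *F11R* turned from -0.10 to 0.17. *CLDN1*, at -3.16, *TJP3*, at 1.44, and *CLDN4*, at 0.78, kept their directions. *CLDN7* stood at -0.21, *CLDN12* at -0.11 and *CLDN3* at 0.67 with the offsets.

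**Figure D3:**
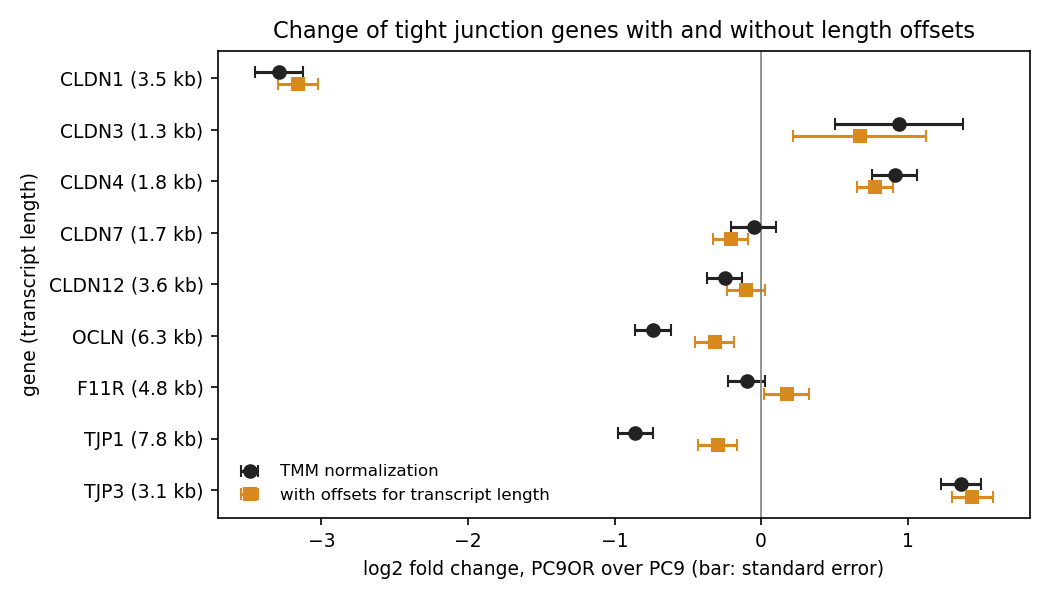
Log2 fold change of PC9OR over PC9 for each gene with its standard error (n = 2 per line), from TMM normalization (circles) and with offsets for transcript length (squares). *CLDN1*, *CLDN4* and *TJP3* keep their place, whereas the long transcripts *OCLN* and *TJP1* move to -0.32 and -0.30.

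In counts, 3 of the 9 genes had lower levels in the resistant line at an adjusted p under 0.05, beside 20.8% of all genes. Another 2 had higher levels, beside 15.6% of all genes (edgeR, adjusted over the 13148 tested genes). Both PC9OR libraries were below both PC9 libraries for 4 of the 9, beside 38.2% of all genes, and above for 3 of the 9, beside 39.6%. With the length offsets the counts were 1 lower and 2 higher. Since the genes were chosen with this comparison known, these counts describe them and show nothing further. The median log2 fold change was -0.10 over the 9 genes and 0.01 over all genes tested. At the study's own threshold (over 2-fold, adjusted p under 0.001), 0 of the 9 genes and 0 of all genes passed with edgeR, while 2685 genes were past 2-fold with an unadjusted p under 0.05.

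The 250 bases before the RefSeq transcript starts of *CLDN1* and *CLDN4*, the claudins with opposite differences, are shown with no bases in capitals because neither holds the Snail-type E-box CACCTG, searched on both strands. They lie at chr3:190322447-190322696 (minus strand) and chr7:73830746-73830995 (plus strand) of GRCh38.p14.
CLDN1: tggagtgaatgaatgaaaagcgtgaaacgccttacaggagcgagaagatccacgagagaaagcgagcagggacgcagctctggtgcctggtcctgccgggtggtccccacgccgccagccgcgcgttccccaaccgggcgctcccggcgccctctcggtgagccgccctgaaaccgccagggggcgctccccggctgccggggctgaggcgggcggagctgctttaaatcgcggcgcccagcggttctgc
CLDN4: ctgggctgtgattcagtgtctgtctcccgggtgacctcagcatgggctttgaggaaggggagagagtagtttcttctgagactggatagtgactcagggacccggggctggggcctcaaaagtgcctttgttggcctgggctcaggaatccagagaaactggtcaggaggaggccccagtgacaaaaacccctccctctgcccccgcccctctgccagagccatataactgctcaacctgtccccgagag
Snail-family factors are known repressors of claudin genes through this E-box. The *CLDN1* window holds 28 CG dinucleotides and the *CLDN4* window 4. RefSeq windows were at hand for 8 of the 9 genes, 14 windows in all, and 5 windows of 4 genes hold the E-box (*CLDN7*, *OCLN*, *TJP1* and *TJP3*), against 17.5% of the 35116 windows of all genes. In 1 of the 2 windows of *CLDN7* it occurs 4 times. The Grainyhead-type palindrome AACCGGTT occurs in 0 of the 14 windows and in 0.12% of all windows. Such matches are descriptions of the letters and not of binding.

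The factors that read those motifs, and others that act on epithelial junction genes, did not move as a block. Of 14 searched for, 13 were tested, and 4 fell, 1 rose and 8 did not pass an adjusted p under 0.05 (edgeR, Benjamini-Hochberg, here and in the lists that follow). *SNAI2*, a Snail-family repressor, fell by 0.77 on the log2 scale and was named after its values were seen. It went from 6.43 and 5.26 FPKM in PC9 to 3.52 and 3.19 FPKM in PC9OR cells. Neither *SNAI1*, at -0.33 (SE 0.723), nor the repressor *ZEB1*, at -1.16 (SE 0.361), passed, and *ZEB2* was not listed. Among the Grainyhead genes, *GRHL1* stood at -0.27 and *GRHL3* at 0.47, and neither passed. *SNAI1*, *ZEB1*, *ZEB2*, *GRHL1* and *GRHL3* were also named after their values were seen. *KLF4*, a factor of epithelial differentiation, fell by 1.46 (SE 0.168, adjusted p = 0.00719), from 14.6 and 12.5 FPKM to 5.44 and 4.15 FPKM. *TWIST1*, which promotes mesenchymal genes, rose by 2.01 (SE 0.456, adjusted p = 0.0274) but from only 8 and 9 counts in PC9 to 36 and 49 counts in PC9OR cells. *GRHL2*, an activator of claudin genes, had 28.6 and 24.5 FPKM in PC9 and 25.0 and 24.9 FPKM in PC9OR cells, and with *ELF3* and *OVOL1* it was among the most abundant that did not pass. Over all genes tested 20.8% were lower and 15.6% higher, and the median log2 fold change of the 13 was -0.27. With either PC9OR library left out, 1 of the 13 passed, and *TWIST1* was not it. The other genes that fell, *KLF5* and *EHF*, were named after their values were seen, and with the length offsets *EHF* was at -0.13 and did not pass.

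Other membrane proteins of the tight junction gave 1 gene that fell, 0 that rose and 6 that did not pass, out of 10 searched for and 7 tested, beside 20.8% of all genes lower and 15.6% higher, with a median log2 fold change of -0.29. *CXADR*, an adhesion molecule of the JAM type, fell by 0.75 on the log2 scale (SE 0.115, adjusted p = 0.0116), from 12.5 and 13.0 FPKM in PC9 to 6.84 and 7.35 FPKM in PC9OR cells, and was named after its values were seen. *LSR*, a protein of junctions where 3 cells meet, had 23.3 and 15.5 FPKM in PC9 and 16.6 and 14.8 FPKM in PC9OR cells, so its replicates in PC9 differed more than the lines. *CRB3*, a polarity protein, and *MARVELD3*, a relative of occludin, had log2 fold changes of -0.10 and 0.15. With the length offsets, 3 genes were lower (*CXADR*, *MARVELD2* and *CRB3*, the last 2 named after their values were seen), and with either PC9OR library left out 0 passed. With PC9 replicate 2 left out, 4 passed, *LSR* among them.

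Of the 19 plaque and polarity proteins beneath the junction, 16 were tested, and 3 fell, 0 rose and 13 did not pass, beside 20.8% of all genes lower and 15.6% higher, with a median log2 fold change of -0.15. *YBX3*, the transcription factor ZONAB that ZO proteins hold at the junction, fell by 1.02 on the log2 scale (SE 0.198, adjusted p = 0.0191), from 56.4 and 38.1 FPKM in PC9 to 23.5 and 22.3 FPKM in PC9OR cells. The others that fell were *TJAP1* and *MAGI3*, which were named after their values were seen. *PRKCI*, an atypical kinase of the polarity complex, had a log2 fold change of 0.16, and *ARHGEF2*, a protein that junctions sequester, one of 0.03. With the length offsets 3 genes were lower and 4 higher (*MPDZ*, *PATJ*, *PARD6B* and *PRKCI*, the first 3 named after their values were seen). Leaving out PC9 replicate 1 or PC9 replicate 2 gave 6 calls each, and leaving out PC9OR replicate 1 or PC9OR replicate 2 gave 0 each, so *YBX3* was then not called.

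Proteins that bind claudins or act on them moved in both directions. Of 9 tested, 5 fell, 1 rose and 3 did not pass, beside 20.8% of all genes lower and 15.6% higher, and the median log2 fold change was -0.79. *CD81*, a tetraspanin that pairs with claudin-1 in the entry of hepatitis C virus, fell by 2.06 on the log2 scale (SE 0.257, adjusted p = 0.00826), from 90.7 and 53.5 FPKM in PC9 to 16.0 and 16.1 FPKM in PC9OR cells. Its PC9 replicates differed widely, yet both lay above both PC9OR replicates. *EPCAM*, which binds claudin-7 and stabilizes it, had between 139 and 148 FPKM in the 4 libraries and a log2 fold change of -0.01 (SE 0.105). *CD9*, another tetraspanin, had a log2 fold change of 0.36, and *WNK4*, a kinase that phosphorylates claudins, one of -1.04 at a level of at most 0.7 FPKM, and neither passed. The single gene that rose was *SPINT2*, a protease inhibitor, named after its values were seen. With PC9OR replicate 1 or PC9OR replicate 2 left out, 3 and 1 of these genes passed. Without PC9 replicate 2, 8 passed, with *CD9* (0.69) and *WNK4* (-1.39) added.

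The adherens junction, the neighbouring cadherin-based contact, gave 3 genes that fell, 1 that rose and 5 that did not pass out of 9 tested, beside 20.8% of all genes lower and 15.6% higher, with a median log2 fold change of -0.39. *CDH1* (E-cadherin) fell by 1.46 on the log2 scale (SE 0.181, adjusted p = 0.00814), from 69.5 and 49.5 FPKM in PC9 to 22.0 and 20.1 FPKM in PC9OR cells. *NECTIN1*, an adhesion molecule, fell by 2.00 (SE 0.301, adjusted p = 0.0113), from 20.3 and 11.3 FPKM to 4.58 and 4.94 FPKM. *NECTIN2* and *NECTIN3* had log2 fold changes of -0.01 and 0.06, and *JUP* (plakoglobin) one of -0.39 with PC9 replicates at 25.4 and 13.4 FPKM. *CTNNB1* and *CTNND1*, catenins that bind *CDH1*, passed in opposite directions, at 0.51 and -0.51, and were named after their values were seen. A further catenin gene, *CTNNA1*, had only 1.55 and 0.98 FPKM in PC9 and 0.5 and 0.86 FPKM in PC9OR cells. It did not pass and was likewise named after its values were seen. With the length offsets *CTNND1* was at -0.12 and did not pass. With either PC9OR library left out, 2 of the 9 passed, and without PC9 replicate 2 6 passed, *JUP* (-0.79) among them.

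**Figure D4:**
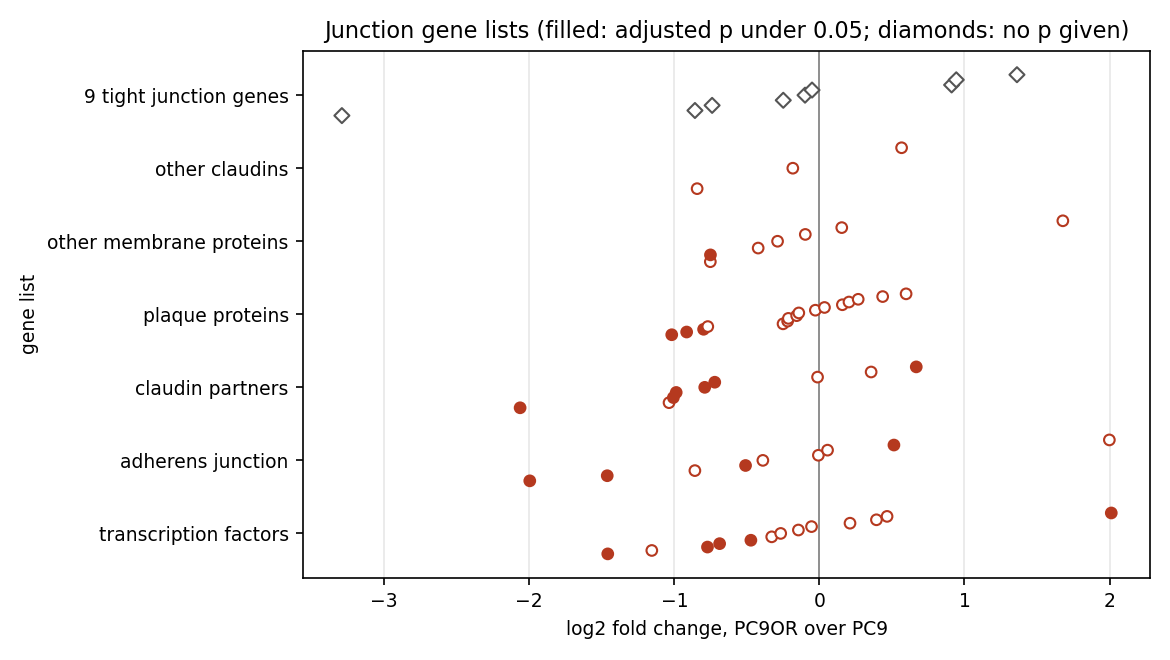
Log2 fold change of PC9OR over PC9 for each tested gene by list, 1 point per gene, filled where the adjusted p was under 0.05 and drawn as diamonds for the 9 tight junction genes, which carry no p. *CLDN1* at -3.29 lies left of all genes of the other lists, and the tested claudins spread on both sides of 0.

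Each gene's log2 CPM, taken with a prior count of 2, was centred on its mean over the 4 libraries. The genes nearest to *CLDN1* were then *RELN*, *TNFAIP3* and *SIRPB1*. Their root mean square distances were 0.0874, 0.0985 and 0.1002 on that centred scale. *TNFAIP3*, an inhibitor of NF-kB signalling, had 218 and 154 CPM in PC9 and 20.3 and 20.04 CPM in PC9OR cells. *SIRPB1*, a signal-regulatory receptor, had 6.87 and 4.72 CPM in PC9 and 0.593 and 0.469 CPM in PC9OR cells. *RELN*, a secreted matrix protein, had under 1 CPM in PC9 and 0 counts in PC9OR cells. Its fitted log2 fold change was -7.27 (SE 1.10), against -3.29 for *CLDN1*. The nearness of *RELN* therefore rests on the prior count, which shrinks differences at low counts. With 4 libraries such likeness mainly restates the difference between the lines.

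Epithelial markers were present in both lines and lung lineage markers were at or near 0. *KRT8* and *KRT18*, keratins of simple epithelia, rose by 1.28 and 1.13 on the log2 scale (adjusted p = 0.00568 and 0.00646, edgeR, Benjamini-Hochberg), and of 9 epithelial markers 6 were tested, with 1 lower (*CDH1*) and 4 higher, beside 20.8% of all genes lower and 15.6% higher. Of the lung lineage markers, *NKX2-1* had 0 counts in PC9 and 4 and 12 counts in PC9OR cells, *NAPSA* had at most 11 counts, and *SFTPB* was not listed. Of 7 markers of leukocytes, endothelium and fibroblasts 6 were listed. Their summed FPKM was 13.0 and 9.35 in PC9 and 3.7 and 3.49 in PC9OR cells, moving the way *CLDN1* moved. Most of that sum came from *CDH5* and *CD68*, the latter at 6.36 and 5.12 FPKM in PC9 and 2.75 and 2.49 FPKM in PC9OR cells. *CDH5* (VE-cadherin) fell by 2.57 (adjusted p = 0.00529) from 6.08 and 4.1 FPKM to 0.86 and 0.8 FPKM, and *CD68* fell by 1.10 (adjusted p = 0.0158, not called with either PC9OR library left out), while *PTPRC* had 1 count in 1 library, *CD3E* was not listed, and *PECAM1* was at 0 in PC9 replicate 2 and PC9OR replicate 1. *COL1A1* and *COL3A1* were at or below 0.08 FPKM in every library. The part of other cells in the results was not tested, and in bulk RNA fewer cells with a transcript and less of it per cell cannot be told apart.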

How the data were processed

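RNA of PC9 and PC9OR cells (2 libraries each) had been prepared with a stranded TruSeq kit. The submitters' processing notes name Bowtie2 2.2.5, RSEM 1.2.12 and GRCh37 without their roles, and the paper names SOAP for read filtering. The authors deposited, per gene and library, expected counts (estimated reads, not normalized), FPKM and a transcript length, under Entrez IDs. The lowest FPKM listed was 0.01, and genes not listed were set to 0. Symbols came from the RefSeq table (99.66% of IDs matched).

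Rounded expected counts went into edgeR 4.0.16 under R 4.3.3 (TMM normalization, filterByExpr, glmQLFit, glmQLFTest), and p-values were adjusted by Benjamini-Hochberg over all 13148 genes kept. Called means an adjusted p under 0.05. The paper names DEGseq, which was not used here. Depth sets a floor of 3 counts, or 0.0936 to 0.128 CPM, for counting error only.

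Length offsets were smooth curves per library (mgcv 1.9.3). Alternatives also used DESeq2 1.42.0 and limma 3.58.1. The tests were checked on simulated counts.

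The genes and lists were chosen with earlier results of these data known. Named are the 9 genes, each other claudin listed, in each further list the called genes over 2-fold (at most 6) and up to 3 uncalled genes of highest FPKM, and the 3 genes nearest to *CLDN1*. Exceptions are marked, and some genes that this rule names are not reported here.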

Additional observations from a re-analysis of the deposited data

How the results depend on the processing

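Over all genes, the 2734 lower and 2056 higher calls ran from 1177 to 3929 and from 525 to 3932 when each library was left out. The replicate block gave 2946 lower and 2593 higher, and moved no count of calls by more than 1.5 times. Whether the numbers pair the libraries was not settled. Across 11429 genes, the log2 difference between the PC9 replicates correlated at 0.07 with that between the PC9OR replicates. The PC9 difference followed transcript length (-0.46) and the PC9OR difference did not (0.00), so a low value cannot exclude pairing. Offsets for transcript length with the replicate block gave 3154 higher. In the edgeR fit the study's threshold (over 2-fold, adjusted p under 0.001) left 0 lower and 0 higher, and 0 were called in every list. The smallest adjusted p of that fit was 0.00155. The DESeq2 Wald test took single genes past that threshold, among them *CD81* at -2.08 (adjusted p = 6.0e-14) and *KRT8* at 1.27 (adjusted p = 1.8e-17).

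Other claudins went from 0 to at most 2 calls with a library left out. Other membrane proteins (1 call) ran from 0 to 4 with a library left out, and gave 2 with limma-trend at either FPKM pseudocount (1 or 0.1), 3 with length offsets and 2 with offsets and the replicate block. Plaque proteins (3 calls) ran from 0 to 6 with a library left out and gave 7 with length offsets, with and without the replicate block. With a library left out, claudin partners (6 calls) ran from 1 to 8, adherens junction genes (4) from 2 to 6 and transcription factors (5) from 1 to 6. The stricter threshold can only lower a count. Leaving out either PC9 library raised the calls over all genes, and leaving out either PC9OR library lowered them. The causes of this and of the other moves were not tested.

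Log2 fold changes with limma-trend on log2(FPKM + 1) were -2.91 for *CLDN1*, 0.30 for *CLDN3* and 1.19 for *TJP3*, where the pseudocount shrinks low levels. With length offsets they were 0.67 for *CLDN3*, -0.11 for *CLDN12*, -0.32 for *OCLN*, 0.17 for *F11R* and -0.30 for *TJP1*, and with the replicate block added 0.68, -0.10, -0.32, 0.19 and -0.30. With a library left out they ran from -3.45 to -3.14 for *CLDN1*, 0.72 to 1.197 for *CLDN3*, 0.78 to 1.04 for *CLDN4*, -0.23 to 0.13 for *CLDN7*, -0.35 to -0.17 for *CLDN12*, -0.84 to -0.63 for *OCLN*, -0.23 to 0.017 for *F11R*, -0.94 to -0.77 for *TJP1* and 1.23 to 1.48 for *TJP3*. The lone library was assumed to vary like the other line.

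By CPM, the claudin shares of *CLDN1* were 15.1% in PC9 and 1.32% in PC9OR, of *CLDN4* 36.1% in PC9, and of *CLDN7* 36.8% and 31.0%, since longer transcripts weigh more. Of 444 other values for 32 list genes, 424 kept their side of the threshold, 9 lost and 11 gained a call, and 0 called genes changed direction. Depth limited *CLDN3* and the claudins under 10 counts.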
